A study of Yarrowia lipolytica with 6 samples.

Results

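Before a fatty acid can be burned it has to be activated and brought into the peroxisome, and 6 genes of these steps were followed here in the oil yeast Yarrowia lipolytica with and without the protein kinase Snf1. The genes were chosen by name or locus tag from the authors' deposited table of 2840 genes. FAA1, FAA3 and FAT1 stand for activation, and YALI0_A06655g (PXA1), YALI0_D04246g (PXA2) and YALI0_E03058g (ANT1) for import. That table lists only genes past the authors' own test, so the presence of the 6 in it was given by the choice. Count rows carry other identifiers, and 3 of the 6 genes (FAA3, FAT1 and PXA2) were tied to a row by the fixed rule, with PXA1 added by a further step. A tie matches the mean, fold change and SE of a deposited gene to a count row on the same chromosome, and a scaled distance says how far apart they are.

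Strain CXAU/AI served as the wild type, and the other strain lacked SNF1, which had been removed by homologous recombination, per the labels. Each group had 3 libraries of total RNA, labelled as biological replicates, and whether the deletion cultures came from 1 transformant is not given in the sources used here. After a preculture of 48 h, both strains had been grown for 24 h at 30 °C in a uracil-containing medium and then held for 1 h with 2% n-decane, an alkane, and 1% uracil. The detergent Triton-X, at 0.1%, was used on all samples to part the cells from the oil. No library came from cells without decane, so a difference present before the alkane cannot be told apart from one that arose in it. The comparison asks how the transcripts of these routes differ between the strains after this hour in decane.

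Alkanes are oxidised in the endoplasmic reticulum and elsewhere to fatty acids, which are then joined to coenzyme A by acyl-CoA synthetases. The scheme of import is known from Saccharomyces cerevisiae. There, long-chain acyl-CoA made outside the peroxisome enters it through a transporter of the ABC type, built from the subunits Pxa1 and Pxa2. Shorter fatty acids can cross the membrane there unactivated and be joined to coenzyme A inside. That reaction needs ATP brought in by the carrier Ant1. How far this division holds in Yarrowia lipolytica was not tested here. Beta-oxidation then shortens the acyl-CoA within the peroxisome. Snf1 is the yeast relative of AMP-activated kinase and is best known for letting cells grow when glucose runs out.

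Total counts ranged from 32315239 to 38054417 per library. SNF1 itself, the check of the labels, had 2546 to 3644 counts in the wild type libraries and 0 in each deletion library, and no library went against its label. Of 7244 features tested with edgeR's quasi-likelihood test, 18.7% were lower and 18.3% higher in the deletion at an adjusted p under 0.05. The share of higher calls among all calls was 49.5% with the TMM scaling used here, and 67.5% when only library size, or an upper quartile, set the scale. Among coding rows 21.3% were lower. In 24.5% of the tested features all deletion libraries lay below all wild type libraries. Levels below are CPM with TMM scaling, and a mean is given with its SD over the 3 libraries of a group. The p-values set the difference between the groups against the spread between these cultures. In such bulk RNA, fewer cells expressing a gene and less RNA per cell cannot be told apart.

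All 6 genes are listed as lower in the deletion in the authors' deposited table, in which 51.4% of the genes are lower. Their log2 fold changes there run from -8.87 for FAA3 to -1.91 for FAA1, with a median of -3.55, against a median of -1.59 over the 1459 genes listed as lower. The 3 genes with a row by the fixed rule, FAA3, FAT1 and PXA2, all fell in the edgeR test, and none rose. Of all tested features 18.7% were called lower in that test, and of coding rows 21.3%. A tie uses the deposited fold change and SE, so the call and the size of the change in a tied row follow largely from the tie. What the rows add is the level in each library.

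FAA3 (YALI0_F06556g, count row rna-XM_505085.1) carries the name of an acyl-CoA synthetase, the enzyme type that joins a fatty acid to coenzyme A. It stood at 248, 998 and 569 CPM in wild type replicates 1, 2 and 3. In the deletion it stood at 0.610, 1.41 and 0.758 CPM. The groups lay far apart, and the lowest wild type library was 175-fold above the highest deletion library.

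The 3 deletion libraries held 24, 59 and 28 counts for FAA3, against 7882 to 29651 counts in wild type. The mean fell from 605 ± 376 CPM to 0.927 ± 0.428 CPM, or 0.153% of the wild type mean. On the log2 scale the difference was -9.34 (SE 0.69, edgeR's quasi-likelihood test with Benjamini-Hochberg adjustment, adjusted p = 1.01e-06). Of the 7244 features tested, 5 had a log2 fold change that low, FAA3 included. The wild type spread was wide as well, with replicate 2 at 4.03 times the level of replicate 1.

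FAT1 (YALI0_E16016g, rna-XM_504004.1) belongs to the family of fatty acid transport proteins, which in Saccharomyces cerevisiae take part in the uptake and activation of long and very long chains. It stood at 5019, 4249 and 3107 CPM in wild type replicates 1, 2 and 3, and at 77.2, 208 and 161 CPM in those of the deletion. Every deletion library lay well below every wild type library, and deletion replicate 1 was the lowest of all.

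Mean FAT1 fell to 149 ± 66.4 CPM from 4125 ± 962 CPM, a 27.7-fold difference (log2 fold change -4.79, SE 0.53, adjusted p = 1.95e-05 in edgeR's quasi-likelihood test). Of all tested features, 83, or 1.15%, had a log2 fold change at or below that of FAT1. FAT1 still had 3039 to 8685 counts per deletion library, where FAA3 had at most 59.

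FAA1 encodes the long-chain acyl-CoA synthetase of this yeast, and it had the smallest change of the 6. The authors' deposited table puts it at -1.91 on the log2 scale (SE 0.35, adjusted p = 7.63e-07), or 3.77-fold lower, with a mean of 50139 normalised counts over the 6 libraries. No coding row could be tied to it, and none lay close to its deposited values. The nearest row was at a scaled distance of 29.4 and the next at 30.6. For the other genes the nearest row was at 0.756 to 2.39. With rows tied to other genes left out, the nearest was at 30.6, over the limit of 30. The deposited change of FAA1 could thus not be set against any single coding row.

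One assembled transcript, MSTRG.3893.1, carries the same StringTie gene number as FAA1 in that table. It stood at 47.1, 48.8 and 48.2 CPM in wild type and at 26.1, 25.4 and 32.7 CPM in the deletion, so the groups did not overlap. The edgeR estimate was -0.78 on the log2 scale (SE 0.28, adjusted p = 0.0423). That call was lost when only library size set the scale (edgeR adjusted p = 0.293), with an upper-quartile scale (0.271) and against a 2-fold change (0.950). It was also lost without wild type replicate 2 or 3 or without any 1 deletion replicate (edgeR adjusted p of 0.0796 to 0.117), and kept without wild type replicate 1. The mean of this transcript was 2.69% of the deposited mean of the gene, so it does not stand for FAA1 as a whole.

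**Figure D1:**
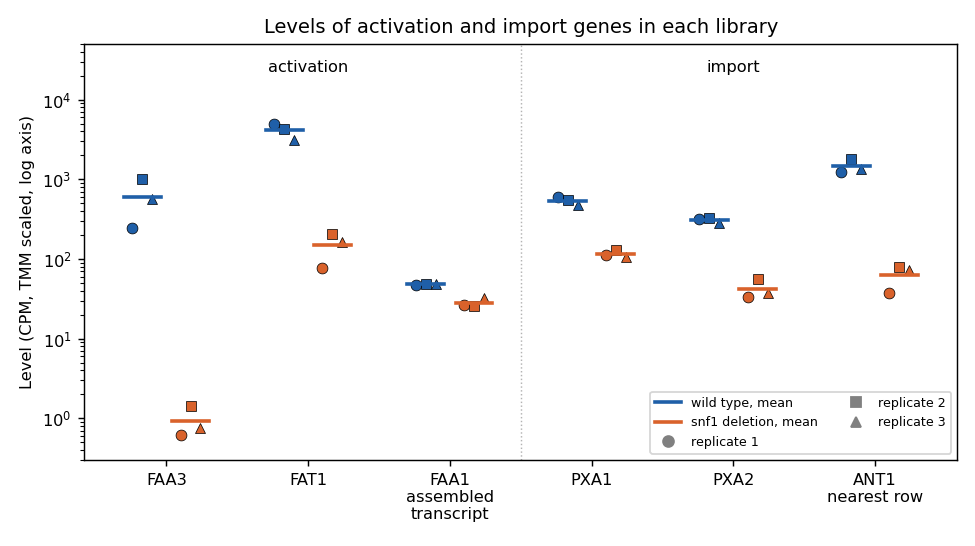
Level of each gene in each library, in CPM on a log axis. Symbols are libraries (circle, square and triangle for replicates 1, 2 and 3), lines are group means, blue is wild type and orange the snf1 deletion. FAA3 drops from 605 to 0.927 CPM, while PXA1 drops from 539 to 116 CPM. The FAA1 symbols are the assembled transcript MSTRG.3893.1, and the ANT1 symbols are the nearest count row, which did not meet the rule for a tie.

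On the import side, PXA2 (YALI0_D04246g, rna-XM_502396.1), which encodes a subunit of the acyl-CoA transporter, stood at 321, 331 and 281 CPM in wild type. In the deletion it stood at 33.4, 56.4 and 37.8 CPM. The wild type libraries lay close together, within 1.18 times of each other, and all were at least 4.98-fold above the deletion libraries. PXA2 thus fell to 42.5 ± 12.2 CPM from 311 ± 26.5 CPM, which is -2.87 on the log2 scale (SE 0.35, edgeR adjusted p = 4.73e-05). Under a stricter distance PXA2 was no longer tied, so its level per library rests on the tie rule.

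PXA1 (YALI0_A06655g, nearest row rna-XM_499814.1) encodes the partner subunit. Its nearest competitor was a row already tied to another gene, and leaving such rows out, a step added after the data were seen, tied it. That row stood at 595, 546 and 475 CPM in wild type and at 111, 131 and 106 CPM in the deletion. Both groups were tight, with a largest spread of 1.25 times, and did not overlap. The mean of this row fell to 116 ± 13.3 CPM from 539 ± 60.2 CPM, or to 21.6% of wild type. That is -2.21 on the log2 scale (SE 0.34, edgeR adjusted p = 0.00031). Since the row was found by the deposited mean, fold change and SE, this fall follows largely from the search and is no separate support for that of PXA1.

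ANT1 (YALI0_E03058g), the carrier of ATP into the peroxisome, is at -4.35 in the authors' deposited table (SE 0.36, adjusted p = 6.02e-31), which is 20.4-fold lower. A pair of rows lay near it, rna-XM_503482.1 at a scaled distance of 0.911 and rna-XM_504123.1 at 3.23, and neither could be tied. The nearest stood at 1235, 1811 and 1335 CPM in wild type and at 37.8, 80.1 and 73.1 CPM in the deletion. The next stood at 1267, 1965 and 1399 CPM in wild type and at 48.5, 63.3 and 90.3 CPM in the deletion. Both rows were found by their likeness to the deposited mean and fold change, so the distance between their groups was set by the search and is no support for the fall of ANT1. Their levels are candidates for those of ANT1 in each library.

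Within each route the fold changes spread widely. Activation holds both ends of the range in the authors' deposited table, with FAA3 at -8.87, FAT1 at -4.60 and FAA1 at -1.91. Import runs from ANT1 at -4.35 through PXA2 at -2.76 to PXA1 at -2.12. FAT1 and ANT1 differ there by less than the SE of either (0.39 and 0.36), and so do FAA1 and PXA1 (0.35 and 0.29). Both transporter subunits lie between ANT1 and FAA1.

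The steps before and after give the scale. In the authors' deposited table, 9 of 12 ALK genes, which start alkane breakdown, are lower and 3 are absent by name, with log2 fold changes from -8.17 for ALK5 to -1.17 for ALK7. Of 4 names of fatty aldehyde dehydrogenases, FALDH1 is at -9.52 and FALDH2 at -4.62, and the other two are absent. All 9 listed genes of beta-oxidation and its thiolases are lower, from -9.17 for POX4, an acyl-CoA oxidase, to -4.02 for POT1, the thiolase. FAA3, FAT1 and ANT1 lie within that span, while PXA2, PXA1 and FAA1 have smaller fold changes than each of the 9. The difference between these groups of genes was not tested.

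Other genes around these routes are lower in that table too. The peroxisome proliferation gene YALI0_C04092g is at -4.98 and the ABC1 transporter gene YALI0_E14729g at -4.46. YALI0_D17534g and YALI0_F10010g, listed here for the breakdown of stored fat, are at -2.32 and -1.76. Among the regulators, the activator gene Yas1 is at -4.77, the repressor gene Yas3 at -0.94, and Yas2 is absent by that name. These values are a description of genes listed because they passed the authors' test on the same libraries.

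**Figure D2:**
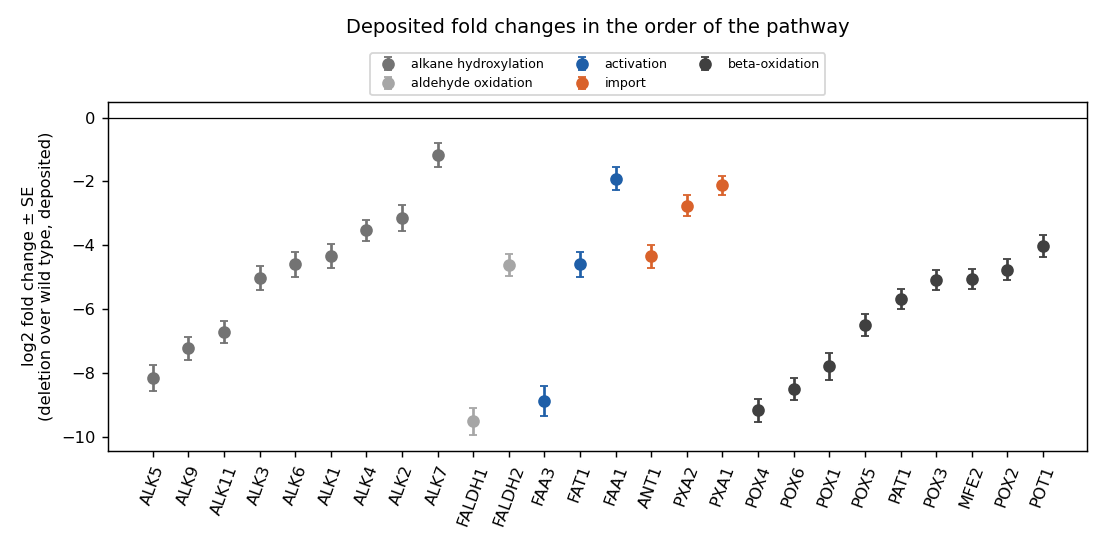
The log2 fold change (deletion over wild type) with its SE, from the authors' deposited table, for genes in the order of the pathway from alkane hydroxylation to beta-oxidation. Activation genes (blue) run from -8.87 to -1.91 and import genes (orange) from -4.35 to -2.12, and the 9 beta-oxidation genes from -9.17 to -4.02.

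**Figure D3:**
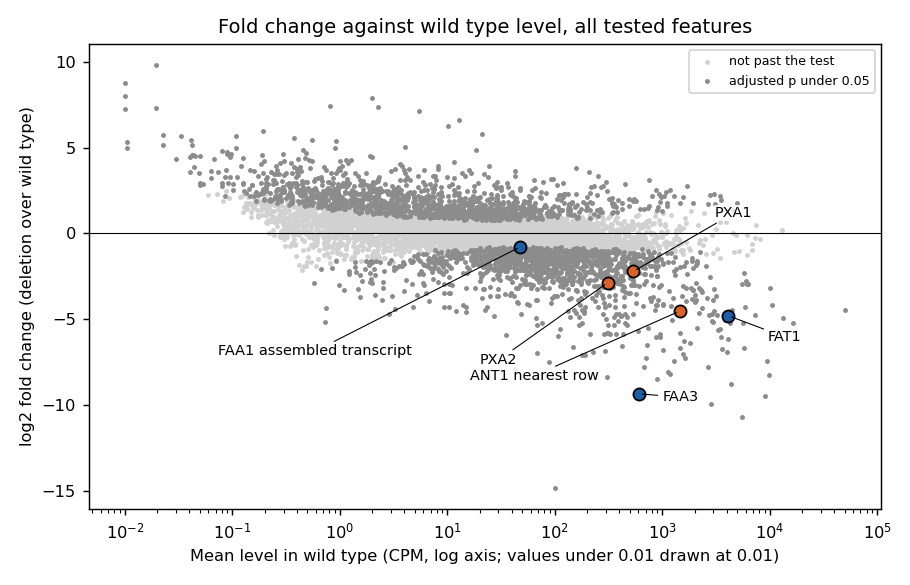
Log2 fold change against mean level in wild type (CPM, log axis) for the 7244 tested features, with those at an adjusted p under 0.05 in darker grey. FAA3 lies at the lower edge of the cloud at -9.34, FAT1 and the nearest ANT1 row at -4.79 and -4.52, and PXA2 and PXA1 at -2.87 and -2.21.

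Levels can be compared between genes once divided by length, here the gene length in the CLIB89(W29) assembly. FAA1 had no tied row and is missing from the orders in both strains. Its deposited mean over the 6 libraries was 50139 normalised counts, against 61515 for FAT1, and its fall was smaller (3.77-fold against 24.2-fold). FAA1 may therefore rank high among these genes, above all in the deletion, which the rows cannot show. In wild type FAT1 was highest at 1928 ± 450 CPM per kb, followed by the nearest ANT1 row at 1153 ± 243, FAA3 at 339 ± 211, PXA1 at 193 ± 21.6 and PXA2 at 141 ± 12.0 CPM per kb. FAT1 and this ANT1 row came within a small margin of overlap (1453 CPM per kb in the lowest FAT1 library and 1430.4 in the highest of ANT1), and the next ANT1 row, at up to 1706 CPM per kb, did overlap FAT1. FAA3, at 139 to 560 CPM per kb, overlapped both transporter subunits. PXA1 lay above PXA2 in all 6 libraries.

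In the deletion the order of these rows, again without FAA1, was different. FAA3 was at the bottom, at 0.520 ± 0.240 CPM per kb, below all libraries of the others. FAT1 stood at 69.6 ± 31.0 CPM per kb, the ANT1 row at 50.3 ± 17.9 and PXA1 at 41.6 ± 4.75, and these overlapped. PXA2 followed at 19.2 ± 5.52 CPM per kb, below all libraries of PXA1. Among 5204 tested coding rows with a length, ranked by level per kb, FAA3 was at 518 with Snf1 and at 5123 without it, FAT1 at 88 and 1389, PXA1 at 819 and 1963, and PXA2 at 1043 and 2958. Added together, FAA3, FAT1, PXA1 and PXA2 took up 0.491 ± 0.0854% of a wild type library and 0.0355 ± 0.0122% of a deletion library. FAA1 and ANT1, without a tied row, are not in this sum, so it is not the share of both routes. FAT1 made up most of it in wild type, at 105933 to 159783 counts per library, against at most 29651 for FAA3, PXA1 or PXA2.

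Tied genes of activation and import were then compared in pairs within each library as a log2 ratio of levels per kb. In such a ratio the scaling of the library cancels. FAA1 and ANT1 had no tied row and could not enter, so the ratios do not stand for whole routes. In the authors' deposited table FAA1 (-1.91) is close to PXA1 (-2.12), and FAT1 (-4.60) to ANT1 (-4.35). FAT1 over PXA2 stood at 4.01, 3.73 and 3.52 in wild type and at 1.26, 1.93 and 2.14 in the deletion, a difference of -1.98. FAT1 thus stayed above PXA2 in all 6 libraries, by less in the deletion. FAT1 over PXA1 averaged 3.30 ± 0.19 in wild type and 0.63 ± 0.67 in the deletion, and in deletion replicate 1 FAT1 lay below PXA1 (-0.14).

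FAA3 over PXA2 stood at -0.06, 1.91 and 1.33 in wild type and at -5.47, -5.01 and -5.33 in the deletion, a difference of -6.32. FAA3 was near or above PXA2 in wild type and far below it in the deletion. FAA3 over FAT1, both activation genes, averaged -2.70 ± 1.21 in wild type and -7.04 ± 0.38 in the deletion, a difference of -4.35. For FAA3 over PXA1 the difference was -7.01. The size of all 3 differences with FAA3 depended on the pseudocount, and with 1 CPM added they were -5.23 (FAA3 over PXA2), -3.23 (over FAT1) and -5.90 (over PXA1). Without wild type replicate 1, where FAA3 was lowest, the difference was -5.04 over FAT1 and -7.62 over PXA1.

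The ratio of the partner subunits had the smallest difference of the 6 pairs. PXA1 over PXA2 stood at 0.55, 0.39 and 0.42 in wild type and at 1.40, 0.88 and 1.16 in the deletion, a difference of 0.69. In all 6 pairs the groups did not overlap. The pairs reuse the same 4 rows, and pairs of other features were not examined, so this count has no share beside it. Each exact permutation test, two-sided, gave p = 0.1, the smallest value that 3 libraries against 3 allow, and 0.1 after Benjamini-Hochberg adjustment over the 6 pairs, so no ratio could pass 0.05. The difference in these ratios follows in large part from the ties, which use the deposited fold changes.

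**Figure D4:**
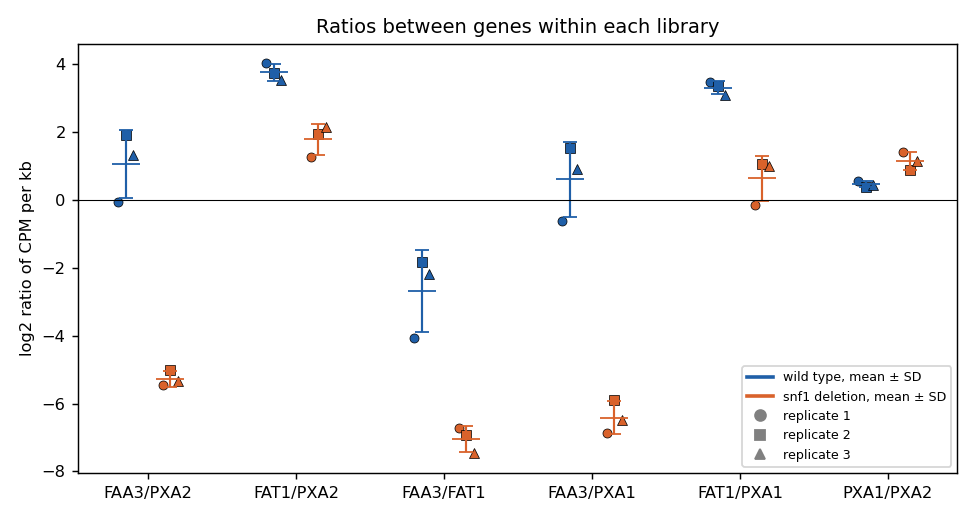
Log2 ratio of levels per kb between a pair of genes in each library, with mean ± SD (n = 3 per group). Wild type (blue) and deletion (orange) do not overlap for any of these pairs, which reuse the same 4 rows. FAT1/PXA2 goes from 3.75 to 1.78, FAA3/PXA2 from 1.06 to -5.27, and PXA1/PXA2 from 0.45 to 1.14.

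The wild type libraries differed from each other in a gene-specific way. FAA3 was at 40.9% of its own wild type mean in replicate 1 and at 165% in replicate 2, a coefficient of variation of 62.3%. FAT1 was highest in replicate 1, at 122% of its mean, and lowest in replicate 3, at 75.3%. The coefficient of variation in wild type was 23.3% for FAT1, 11.2% for PXA1 and 8.53% for PXA2. Over all tested features, 34.7% were lowest in wild type replicate 1.

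The coding rows whose centred log2 profile over the 6 libraries lay nearest to each gene were looked up among 4454 rows of at least 10 CPM. For FAA3 they were POX1 (Euclidean distance 1.06), ALK5 (1.14) and ADH7 (1.60), an oxidase, a P450 and an alcohol dehydrogenase gene. All 3 were highest in wild type replicate 2, as FAA3 was, but ADH7 was lowest in replicate 3 and FAA3 in replicate 1. For FAT1 they were POX2 (0.51), MFE2 (0.72) and YALI0_E34672g (0.73), all highest in replicate 1 and lowest in replicate 3. For PXA1 they were YALI0_E31064g, YALI0_D17534g and YALI0_C10604g, at 0.29, 0.32 and 0.32. For PXA2 they were YALI0_F23683g, YALI0_E32769g and the row rna-XM_504265.1, at 0.29, 0.34 and 0.38. PXA2 was highest in wild type replicate 2 and these 3 rows in replicate 1. Rows were chosen by profile, so a shared order of libraries follows from the choice.

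**Figure D5:**
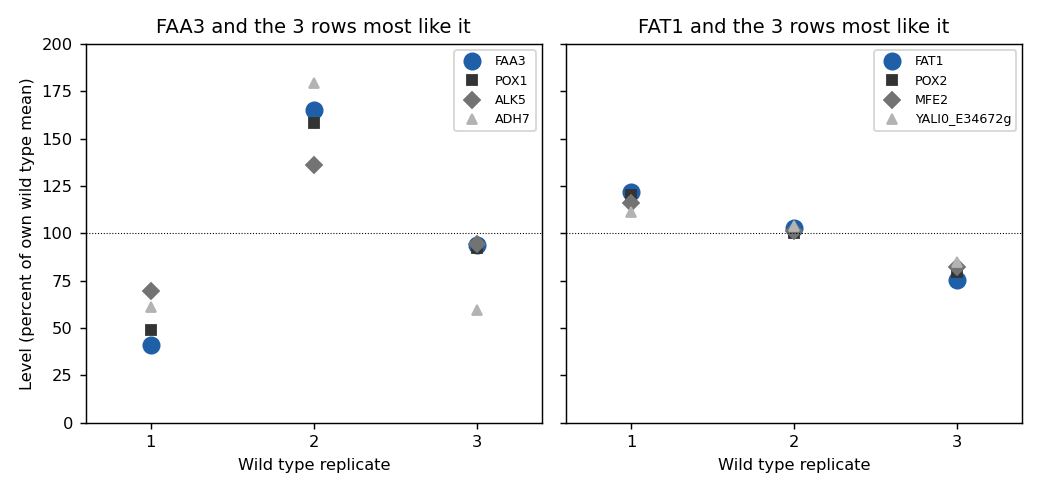
Level in each wild type library as a percentage of the gene's own wild type mean, for FAA3 (left) and FAT1 (right), each with the 3 coding rows of most similar profile. FAA3 sits at 40.9% in replicate 1 and 165% in replicate 2, and FAT1 at 122% in replicate 1 and 75.3% in replicate 3.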

How the data were processed

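The authors deposited whole-number counts per transcript for each of 6 libraries (9235 features, total counts as given above). A further table deposited by the authors holds DESeq2 results for 2840 genes, and no adjusted p-value in it exceeds 0.05. The log2 fold changes in it, which compare the deletion with wild type, and their standard errors are the authors' deposited values. The authors' deposited column was handled as a score, since it closes on a stray number. Its means are a signal that the authors deposited, the mean of normalised counts. Per the submitters' processing notes the tools were DESeq2 2.11.40.7, StringTie, HISAT2 2.2.1 and Trimmomatic 0.38.0. Neither the genome build nor whether counting used strand is stated (not given in the sources used here). Antisense and overlapping transcripts therefore cannot be told apart, and 638 of 6447 coding rows were at 0 in all libraries.

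Groups were compared with edgeR 4.0.16 (quasi-likelihood test, TMM, filterByExpr at a minimum count of 10, Benjamini-Hochberg adjustment) in R 4.3.3. The SE was taken as |log2 fold change| over the root of the F statistic. Alternatives used DESeq2 1.42.0 and limma 3.58.1. Both scripts were tested on simulated data. No pair of libraries in a group agreed within sampling noise.

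Count rows and deposited genes share no identifier except the StringTie gene number. A gene was tied to the mutually nearest coding row on its chromosome in mean, shrunken log2 fold change and SE. The distance was scaled by the scatter of sure pairs and had to be under 30, and the next row had to lie at 5 or beyond and at 3 or more times the distance of the nearest. Of 2111 genes, 1119 were tied, and 83.6 on average when the chromosome was wrong on purpose. The chromosome and length of a row came from the reference table of the CLIB89(W29) assembly, where 5814 of 6447 coding rows matched by accession and 81.9% of coding gene lengths are multiples of 3, so they are mostly coding lengths. No sequences were used here, so the planned search for related proteins was not run.

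The 6 genes and all lists were chosen with earlier results of these data known. The naming rule took the 6 genes, SNF1, the listed genes of neighbouring steps, and the 3 nearest profiles per tied gene, from log2(CPM + 0.5).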

Additional observations from a re-analysis of the deposited data

How the results depend on the processing

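FAA3, FAT1, PXA1 and PXA2 stayed lower and past the threshold in all 16 alternatives, with log2 fold changes of -9.79 to -8.76, -5.12 to -4.40, -2.31 to -1.84 and -3.13 to -2.48. Their rows were tied by the deposited fold change and SE from the same libraries. Passing these alternatives thus follows largely from the ties and is no separate support for the falls. With library size only, the median of all features moved from 0.04 to 0.40 on the log2 scale, and relative to that median FAT1 was at -4.80 against -4.83 with TMM. Over all features, glmTreat against a 2-fold change called 641 lower and 505 higher, against 1356 and 1329, and upper-quartile scaling called 2005 higher. Leaving out 1 library gave 951 to 1366 lower and 873 to 1351 higher, the lowest both without deletion replicate 3. The labels share replicate numbers without pairing the cultures. Deviations of same-numbered libraries correlated at 0.0576, 0.148 and 0.154, each wild type library best with its own number, and the replicate block gave 1342 lower and 1412 higher and changed no call named here. The differences in ratio kept their sign with pseudocounts of 0.5 and 1 CPM and without each library. Those with FAA3 were smaller with either pseudocount (FAA3 over FAT1 -3.68 and -3.23 on the log2 scale, against -4.35). Under the stricter distance 2 of the 6 genes were tied, and 4 with the rows of other ties removed, against 3. Depth limits FAA3 in the deletion, where each library held under 60 counts.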

Other observations

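The 9 tied genes of beta-oxidation did not share 1 order of the wild type libraries. Of them, 6 (POX2, POX3, POX5, MFE2, POT1 and PAT1) were highest in wild type replicate 1, as FAT1 was, and 3 (POX1, POX4 and POX6) in replicate 2, as FAA3 was. POX6 was lowest in replicate 3, unlike FAA3. The level in replicate 1 over that in replicate 2 ran from 0.310 for POX1 to 1.49 for PAT1, with 0.248 for FAA3 and 1.18 for FAT1, against a median of 1.06 over all tested features. Of 8 tied ALK genes, 7 were highest in replicate 2. Over all tested features, 38.7% were highest in wild type replicate 1 and 31.9% in replicate 2. No test was made, since each order rests on 1 library per replicate number.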
